A study of Mus musculus with 5 samples.

Results

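The genes followed here were 10 of the 49315 gene identifiers in the count table, taken by symbol, and known as marks of the connective tissue cells of the lung. Of these, 5 are markers of alveolar fibroblasts (Pdgfra, Tcf21, Inmt, Limch1 and Npnt) and 5 of adventitial fibroblasts (Pi16, Dpt, Scara5, Clec3b and Mfap5). The RNA came from isolates labelled as lung endothelial cells, so these are transcripts of a cell type that the label does not name. WT mice gave 3 libraries, and TET2KO mice, whose knockout of the 5-methylcytosine oxidase TET2 is labelled as endothelial-specific, gave 2. Mice of both genotypes had been infused with angiotensin II, a peptide hormone that constricts vessels, for 28 days. There was no group without angiotensin II. Strain, sex, age, the Cre driver, the deleted exons, the way the cells were isolated and whether a library came from 1 animal or a pool are not given in the sources used here. The p-values therefore measure only the spread between these libraries, which may be technical.

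Alveolar fibroblasts lie in the walls of the air sacs, where they carry lipid droplets, lay down elastic fibres and support the epithelium. They depend on platelet-derived growth factor (PDGF) signalling through PDGFRA. Adventitial fibroblasts lie in the cuffs of loose connective tissue around larger vessels and airways, and their markers Pi16 and Dpt recur in the connective tissue of many organs. Some of these genes are made by other cells too: Npnt and Limch1 are also known from lung epithelium.

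Facts of the libraries bear on every value below. Total counts were between 27346804 and 35440257 per library. Tet2 itself did not separate the groups when counted over the whole gene (log2 fold change 0.02, SE 0.19, edgeR adjusted p = 0.987), which checks no label, since the deleted part was not given. WT replicate 2 stood apart, at 90.8 on a first principal component that held 57.5% of the variance, with the other 4 libraries between -50.9 and 7.71. A further point concerns WT replicate 3. The log2 fold changes in the authors' deposited table matched, within 0.01 for 18016 of 18019 genes, the ratio of the mean of WT replicate 3 and the TET2KO libraries to the mean of WT replicates 1 and 2. With the labelled groups the same match held for 495 genes. Every group below follows the labels, in which that library is WT, and values without it are given beside the results.

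The alveolar genes were lowest in WT replicate 2 and higher in both TET2KO libraries than in any WT library, for 5 of 5 genes, with log2 fold changes from 0.94 to 1.33. Such a gap, with the lower TET2KO library above the highest WT library, was found for 12.4% of the 18727 genes tested. The adventitial genes did not share that pattern: the groups overlapped for 5 of 5, and WT replicate 1 was the highest library for 4 of them. None of the 10 genes passed an adjusted p of 0.05 in edgeR's quasi-likelihood test, where 0% of all genes passed. Since these are bulk samples, fewer cells of a type and less RNA per cell cannot be told apart.

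**Figure D1:**
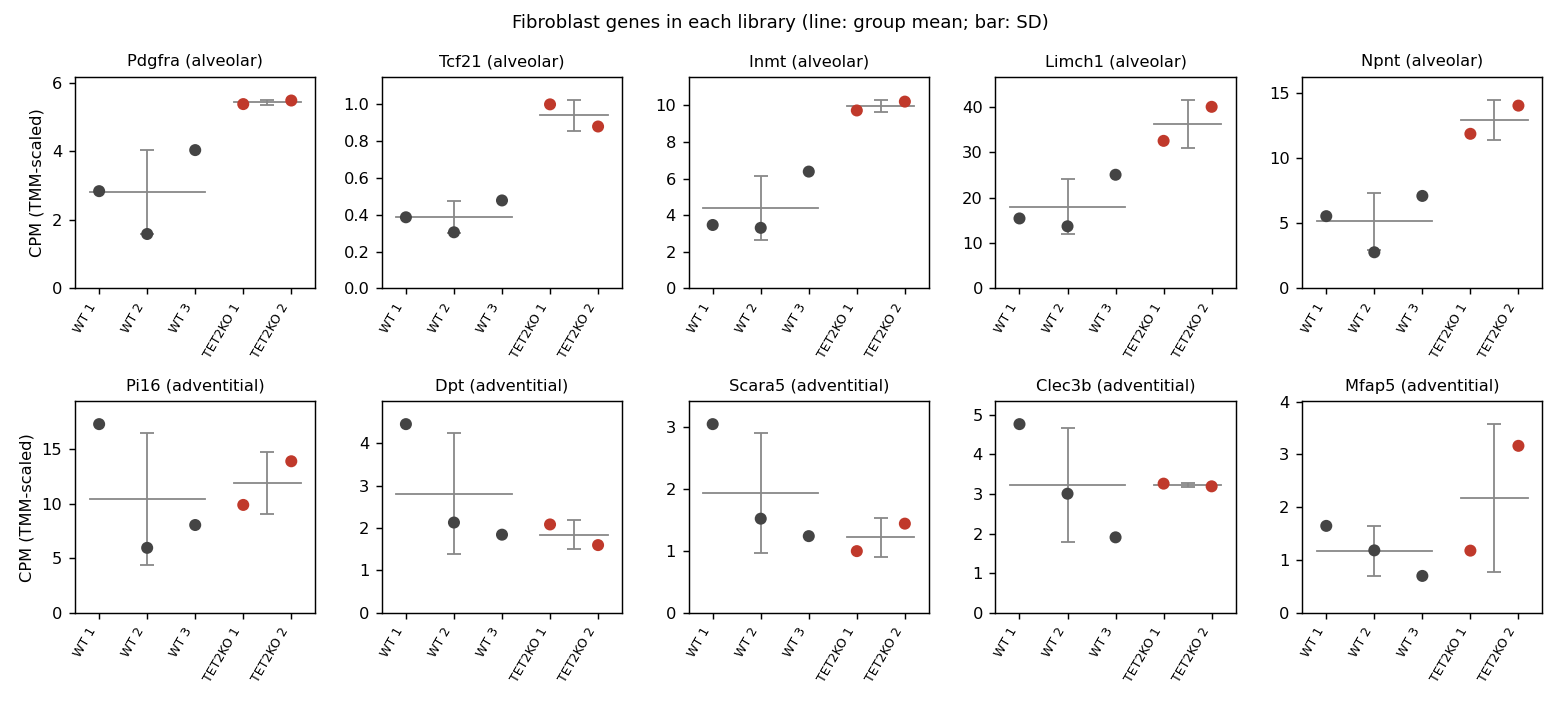
Levels of the 10 genes in CPM, which are counts scaled to library size with TMM factors, in each library, WT in grey and TET2KO in red; lines are group means and bars the SD (n = 3 and n = 2). In the upper row both TET2KO points lie above all WT points for each of the 5 alveolar genes, and in the lower row the groups overlap for each of the 5 adventitial genes.

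Pdgfra encodes the receptor for PDGF-A and other PDGF ligands, and lies on chromosome 5 (75152292 to 75198215, plus strand, GRCm38). It stood at 2.84, 1.59 and 4.04 CPM in WT replicates 1 to 3 and at 5.38 and 5.48 CPM in TET2KO replicates 1 and 2. The TET2KO values were close to each other, while the WT values spread widely and WT replicate 3 came nearest to them. Group means were 2.82 ± 1.22 CPM for WT (SD, n = 3) and 5.43 ± 0.0737 CPM for TET2KO (SD, n = 2), a difference of 0.94 on the log2 scale (SE 0.41, edgeR adjusted p = 0.864).

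Tcf21 encodes a basic helix-loop-helix transcription factor of lung mesenchyme (chromosome 10, 22817281 to 22820174, minus strand). It had the lowest counts of the 10 genes, 11, 9 and 15 in WT and 33 and 28 in TET2KO. In CPM these were 0.385, 0.304 and 0.477 against 0.997 and 0.877. The exact 95% Poisson interval, which covers counting error only, was 0.267 to 0.786 CPM in WT replicate 3 and 0.583 to 1.27 CPM in TET2KO replicate 2, so the nearest libraries of the groups overlapped within counting error. On the log2 scale TET2KO exceeded WT by 1.26 (SE 0.37, edgeR adjusted p = 0.740).

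Inmt encodes indolethylamine N-methyltransferase, an enzyme that methylates small amines (chromosome 6, 55170626 to 55175043, minus strand). Its levels were 3.47, 3.31 and 6.39 CPM in the WT libraries and 9.73 and 10.2 CPM in the TET2KO libraries. WT replicate 3 was again the highest of the WT libraries, at 1.88 times the mean of the other 2. The log2 fold change was 1.18 (SE 0.35, edgeR adjusted p = 0.740).

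Limch1 encodes an actin-binding protein that activates non-muscle myosin (chromosome 5, 66745827 to 67057158, plus strand). It had the highest counts of the 10 genes in every library but WT replicate 1, where Pi16 had 493. Its counts were 440, 405 and 788 in WT and 1076 and 1277 in TET2KO. These were 15.4, 13.7 and 25.04 CPM against 32.5 and 40.0 CPM, with no overlap between the groups. The fitted log2 fold change was 1.01 (SE 0.30, edgeR adjusted p = 0.740).

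Npnt encodes nephronectin, a matrix ligand of integrin alpha 8 beta 1 (chromosome 3, 132881745 to 132950291, minus strand). WT libraries held 5.54, 2.77 and 7.09 CPM of it, and TET2KO libraries 11.8 and 14.0 CPM. Among the alveolar genes it had the widest range, 5.05-fold between WT replicate 2 and TET2KO replicate 2. The log2 fold change was 1.33 (SE 0.40, edgeR adjusted p = 0.744).

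At an unadjusted p under 0.05, edgeR counted 4 of the 5 alveolar genes, all but Pdgfra, and 5.32% of all genes as higher in TET2KO. That count of 4 fell to 2 without WT replicate 1, stayed at 4 without WT replicate 2 and rose to 5 without WT replicate 3. Over all genes, those fits gave 725, 1876 and 1407 such p-values in either direction, beside 1098 with all libraries. With 1 TET2KO library left, that library is assumed to vary like the WT libraries, so only the effect size is given. The alveolar median was then 1.16 without TET2KO replicate 1 and 1.15 without TET2KO replicate 2. DESeq2 called 0 of the 10 genes at an adjusted p under 0.05 and 0.326% of all genes, and limma-voom called 0 of the 10. None of the adventitial genes had an unadjusted p under 0.05 in edgeR with TMM scaling.

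The median log2 fold change of the alveolar genes was 1.18, beside -0.08 over all genes tested. Without WT replicate 3 it was 1.46, and without WT replicate 2 it was 1.03. When library sizes were set to the summed counts of 14 endothelial genes, a scaling chosen after the data were seen, the alveolar median was 0.52 and that of all genes was -0.80. On that scale 0 of the 5 alveolar genes had an unadjusted p under 0.05 by edgeR.

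The order of the libraries was the same for all 5 alveolar genes: WT replicate 2, WT replicate 1, WT replicate 3 and then the TET2KO libraries. The share of all genes with this order was not counted, and the summed endothelial genes below have it too. The alveolar genes differed only in which TET2KO library was higher, which was replicate 2 for 4 of them and replicate 1 for Tcf21. Within the WT group, replicate 3 stood 1.38 times (Tcf21) to 1.88 times (Inmt) the mean of replicates 1 and 2. In the authors' deposited table, where that library falls with TET2KO, the log2 fold changes were 1.39 for Inmt (adjusted p 0.00979), 1.18 for Limch1 (0.0148), 1.42 for Npnt (0.0612), 1.19 for Pdgfra (0.0778) and 1.21 for Tcf21 (no adjusted p). Inmt and Limch1 are thus among the 1.66% of listed genes with an adjusted p under 0.05 in the authors' deposited table, and among the 1.2% that also had an absolute log2 fold change over 1. Without WT replicate 3, the labelled groups gave 1.59 for Inmt (edgeR adjusted p = 0.443) and 1.35 for Limch1 (edgeR adjusted p = 0.443).

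**Figure D2:**
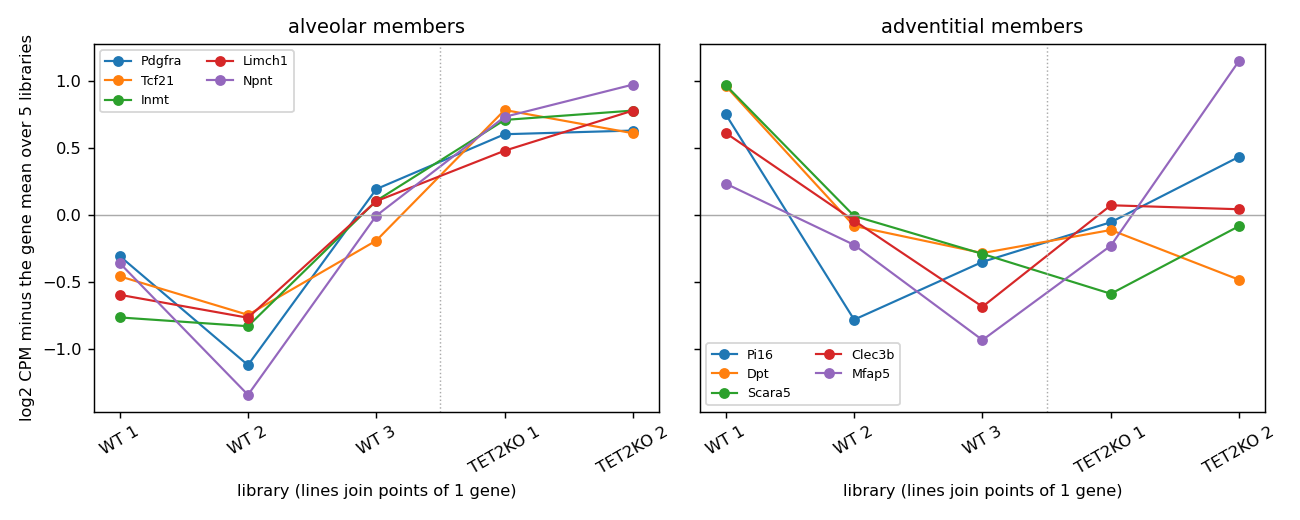
log2 CPM of each gene minus its mean over the 5 libraries, with the alveolar genes on the left and the adventitial genes on the right; lines only join the points of 1 gene. The alveolar genes run together through the libraries, from WT replicate 2 at the bottom to TET2KO at the top, while the adventitial genes are mostly highest in WT replicate 1 and Mfap5 is highest in TET2KO replicate 2.

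Because TET enzymes act on methylated CpG sites, the stretch just upstream of the start is shown for genes that move together but differ in CpG content, with an adventitial gene beside them. Sequences are from the set of RefSeq promoters (GRCm38.p6) used here, which held 7 of the 10 genes. They end before the first annotated start in RefSeq or GENCODE. Capitals mark CG dinucleotides and, in Inmt, TATAAA. They are Limch1 (chr5:66745639-66745826, plus strand), Npnt (chr3:132950292-132950541, minus strand), Inmt (chr6:55175044-55175240, minus strand), Tcf21 (chr10:22820175-22820393, minus strand) and Dpt (chr1:164796413-164796643, plus strand), each read 5′ to 3′ along its gene.
Limch1: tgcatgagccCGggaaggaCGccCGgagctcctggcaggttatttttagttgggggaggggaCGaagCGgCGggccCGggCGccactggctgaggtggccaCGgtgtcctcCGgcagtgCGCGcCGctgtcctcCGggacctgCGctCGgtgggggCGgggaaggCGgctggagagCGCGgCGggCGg
Npnt: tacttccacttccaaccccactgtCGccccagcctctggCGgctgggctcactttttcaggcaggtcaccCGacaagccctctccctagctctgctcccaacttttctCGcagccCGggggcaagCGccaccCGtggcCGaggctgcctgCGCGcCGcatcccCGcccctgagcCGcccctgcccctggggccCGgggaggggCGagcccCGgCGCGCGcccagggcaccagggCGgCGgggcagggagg
Inmt: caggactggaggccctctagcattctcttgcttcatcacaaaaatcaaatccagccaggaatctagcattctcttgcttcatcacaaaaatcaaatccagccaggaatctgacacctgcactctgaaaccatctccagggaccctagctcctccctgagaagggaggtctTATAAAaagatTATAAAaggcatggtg
Tcf21: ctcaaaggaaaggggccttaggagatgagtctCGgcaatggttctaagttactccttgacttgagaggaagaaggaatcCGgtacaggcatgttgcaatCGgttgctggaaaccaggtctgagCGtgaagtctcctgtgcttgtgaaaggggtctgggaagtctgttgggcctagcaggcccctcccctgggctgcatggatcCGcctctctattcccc
Dpt: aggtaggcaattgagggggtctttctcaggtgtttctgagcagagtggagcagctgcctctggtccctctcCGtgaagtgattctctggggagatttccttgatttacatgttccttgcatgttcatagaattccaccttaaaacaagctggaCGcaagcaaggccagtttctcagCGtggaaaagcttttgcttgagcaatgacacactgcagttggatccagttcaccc

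In the 250 bases before the RefSeq start, Limch1 held 30 CG and Npnt 21, while Tcf21 held 5, Pdgfra 4 and Inmt 0. The Limch1 stretch printed above shows 22 of the 30, since the GENCODE start lies inside that window and the print ends before it. Of 32851 mouse promoter windows of that length, 5.19% held more CG than Limch1, and 92.1% held at least 1. Among adventitial genes, Dpt held 3 CG and Pi16 held 2. TATAAA or its reverse complement TTTATA, the TATA box letters, stood in the Inmt window and in 12.4% of all windows. The promoter windows of the 5 alveolar genes spanned CpG-rich and CpG-free sequence. No methylation was measured here, and whether CpG content bears on the levels of these genes was not tested.

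Turning to the adventitial genes, Pi16 encodes a secreted peptidase inhibitor (chromosome 17, 29317680 to 29330593, plus strand). Its levels in WT were 17.3, 5.95 and 8.04 CPM, those in TET2KO 9.88 and 13.9 CPM, so that WT replicates held both the highest and the lowest values. Its log2 fold change was 0.19 (SE 0.49, edgeR adjusted p = 0.942), and the sign depended on the libraries used, with -0.054 without WT replicate 2 and -0.076 without TET2KO replicate 2.

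Dpt encodes dermatopontin, a matrix protein that binds decorin and collagen (chromosome 1, 164796644 to 164824266, plus strand). Levels of 4.45, 2.13 and 1.84 CPM were measured in WT, and of 2.08 and 1.60 CPM in TET2KO. WT replicate 1 was far above the other 4 libraries. TET2KO differed from WT by -0.61 on the log2 scale (SE 0.48, edgeR adjusted p = 0.864) over all libraries and by -0.11 without WT replicate 1.

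Scara5 encodes a scavenger receptor that takes up ferritin (chromosome 14, 65666403 to 65764826, plus strand). Its levels were 3.05, 1.52 and 1.24 CPM in WT and 0.997 and 1.44 CPM in TET2KO, with the same high WT replicate 1. Its fitted log2 fold change was -0.66 (SE 0.50, edgeR adjusted p = 0.864), and -0.18 without WT replicate 1.

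Clec3b encodes tetranectin, a plasminogen-binding lectin (chromosome 9, 123150946 to 123157432, plus strand). WT libraries held 4.77, 3.01 and 1.91 CPM, and TET2KO libraries 3.26 and 3.19 CPM, which lay inside the WT range. Group means were 3.23 ± 1.44 CPM (SD, n = 3) and 3.23 ± 0.0478 CPM (SD, n = 2). The log2 fold change was 0.0025 (SE 0.43, edgeR adjusted p = 0.999), and -0.23 without WT replicate 3.

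Mfap5 encodes a glycoprotein of elastic microfibrils (chromosome 6, 122505845 to 122529290, plus strand). In the WT libraries it reached 1.65, 1.18 and 0.699 CPM, and in the TET2KO libraries 1.18 and 3.16 CPM. A single library, TET2KO replicate 2, was high. The log2 fold change was 0.88 (SE 0.56, edgeR adjusted p = 0.864), and without that library it was 0.01.

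The median log2 fold change of the adventitial genes was 0.0025, with 3 of 5 above 0, beside 41.6% of all genes tested. Leaving out WT replicate 3 put it at -0.23, leaving out WT replicate 1 at 0.40, and scaling to the endothelial genes at -0.76. That scaling put Scara5 at -1.42 (SE 0.56) and Dpt at -1.34 (SE 0.54), each with an unadjusted p under 0.05 but edgeR adjusted p values of 0.146 and 0.147, and Mfap5 at 0.10 (SE 0.60). Log2 fold changes in the authors' deposited table were below 0 for 4 of the 5, from -0.88 for Scara5 (adjusted p 0.365) to -0.11 for Pi16 (0.942), and Mfap5 was at 0.28 (0.889). WT replicate 3, which was the highest WT library for 5 of 5 alveolar genes, was the lowest WT library for 4 of 5 adventitial genes.

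**Figure D3:**
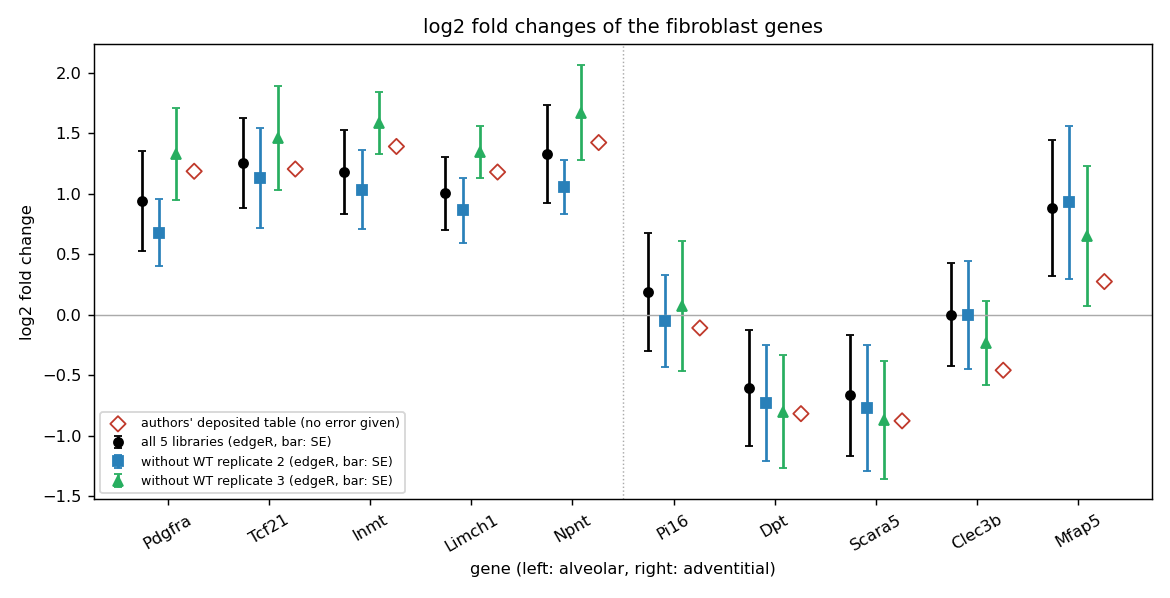
log2 fold changes of the 10 genes by edgeR (bars: SE) with all 5 libraries, without WT replicate 2 and without WT replicate 3, each TET2KO over WT, beside the values of the authors' deposited table, which group WT replicate 3 with TET2KO. The alveolar genes are above 0 in each of these, from 0.68 for Pdgfra without WT replicate 2 to 1.67 for Npnt without WT replicate 3, and the adventitial genes lie on both sides of 0.

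Levels can be compared between genes on the deposited TPM scale, which divides by gene length. In WT, Clec3b (10.4 ± 5.56 TPM), Inmt (8.87 ± 4.20) and Pi16 (8.64 ± 5.82) had the highest mean TPM (SD, n = 3), and these neighbours did not differ beyond their spread. Limch1 was at 5.69 ± 2.42, Dpt at 5.30 ± 3.23 and Npnt at 3.36 ± 1.72 TPM. Mfap5 (1.04 ± 0.496), Scara5 (1.03 ± 0.621), Tcf21 (1.03 ± 0.341) and Pdgfra (0.925 ± 0.479) lay lowest, again within each other's SD. In TET2KO, Inmt stood first at 22.7 ± 0.758 TPM (SD, n = 2), ahead of Limch1 at 12.9 ± 1.87, Clec3b at 11.9 ± 0.188, Pi16 at 10.9 ± 2.58 and Npnt at 9.38 ± 1.10 TPM. Limch1, Clec3b, Pi16 and Npnt were each within the SD of a neighbour in that order. Below these were Dpt at 3.90 ± 0.733, Tcf21 at 2.80 ± 0.256, Mfap5 at 2.21 ± 1.43, Pdgfra at 1.98 ± 0.0249 and Scara5 at 0.730 ± 0.187 TPM.

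As a sum, the 5 alveolar genes held 18.8, 11.5 and 29.3 TPM in WT replicates 1 to 3 and 47.3 and 52.3 TPM in TET2KO. The adventitial genes held 44.3, 16.7 and 18.4 TPM in WT and 27.3 and 31.9 TPM in TET2KO. Alveolar TPM divided by adventitial TPM was 0.424 in WT replicate 1 and 0.688 in WT replicate 2. In WT replicate 3 it was 1.60, and in the TET2KO libraries 1.73 and 1.64. By this ratio WT replicate 3 lay beside the TET2KO libraries and apart from the other WT libraries.

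Other genes of alveolar fibroblasts, from a list that left out those above, lay mostly in the same direction. Of 14 listed, 12 passed the filter on low counts, 11 were higher in TET2KO by the fitted fold change, and for 9 the TET2KO libraries lay above all WT libraries (12.4% of all genes). The list's median was 1.11. In this list and the 4 that follow, 0 genes passed the adjusted threshold by edgeR, DESeq2 or limma-voom, and edgeR counted 6 of the 12 as higher at an unadjusted p under 0.05 (5.32% of all genes). Mfap4, a microfibril protein, averaged 2.27 ± 0.768 CPM over the WT libraries (SD, n = 3) and 5.74 ± 1.11 CPM over the TET2KO libraries (SD, n = 2), and its log2 fold change was 1.34 (SE 0.38). Gpc3, the heparan sulfate proteoglycan glypican 3, differed by 1.16 (SE 0.35) on the log2 scale, the carboxylesterase Ces1d by 1.08 (SE 0.41) and the integrin subunit Itga8, part of the receptor of nephronectin, by 1.35 (SE 0.66). Lpl, lipoprotein lipase, which macrophages also make, was the listed gene below 0, at -0.88 (SE 0.88), and held 92.7% to 99.3% of the list's summed CPM in each library.

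Other adventitial genes were more mixed. Of 18 listed, 17 were tested, 13 lay above 0 and 4 below, with a median of 0.52. In edgeR 4 had an unadjusted p under 0.05, all higher in TET2KO, beside 5.32% of all genes. For 7 the TET2KO libraries lay above all WT libraries, beside 12.4% of all genes. Below 0 were Gsn at -0.65 (SE 0.41), Lum at -0.65 (SE 0.53), Serpinf1 at -0.29 (SE 0.46) and Ebf1 at -0.24 (SE 0.60). Ly6c1, which lung endothelium also expresses, had the smallest p, with means of 98.4 ± 22.9 CPM for WT (SD, n = 3) and 166 ± 6.45 CPM for TET2KO (SD, n = 2). Ogn, the small leucine-rich proteoglycan osteoglycin, had a log2 fold change of 1.03 (SE 0.38), Cd248, the stromal receptor endosialin, 1.13 (SE 0.43), and Igfbp4, an insulin-like growth factor binding protein, 0.53 (SE 0.22).

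Matrix genes that fibroblasts of either kind make were above 0 for 15 of 16, with a median of 0.68. Of these genes, 5 were higher at an unadjusted p under 0.05 in edgeR (5.32% of all genes). For 9 the TET2KO libraries were above all WT libraries (12.4% of all genes). Bgn, the proteoglycan biglycan, differed by 0.77 (SE 0.28) and Col6a2, a collagen VI chain, by 0.82 (SE 0.30) on the log2 scale. Sparc (0.90, SE 0.20) and Eln, elastin (1.31, SE 0.31), had the smallest p in this list. Col1a1 and Col1a2, the fibrillar collagen I chains, overlapped between the groups, at 0.38 (SE 0.56) and 0.24 (SE 0.44).

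Genes of activated fibroblasts, those that appear in scarring lungs, had a median of 0.49, with 9 of 11 tested members above 0. In edgeR 1 of them, Postn, was higher at an unadjusted p under 0.05, beside 5.32% of all genes. Postn, the matrix protein periostin, averaged 1.84 ± 1.03 CPM for WT (SD, n = 3) and 4.75 ± 0.966 CPM for TET2KO (SD, n = 2), 1.36 higher on the log2 scale (SE 0.53). Fap, a surface protease, was at 0.71 (SE 0.36) and Cthrc1, a secreted collagen-triple-helix protein, at 0.61 (SE 0.36) on the log2 scale. Runx1, a transcription factor also of blood cells, was at -0.57 (SE 0.42). Spp1 was also below 0, at -1.80 (SE 1.47). It held 78.4% of the list's summed CPM in WT replicate 2 and 47.3% in TET2KO replicate 2. Grem1 was at 0 counts in 2 WT libraries and had at most 3 in any library.

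In the PDGF family, which holds Pdgfra itself, 5 of 7 genes were above 0 and the median was 0.81. In edgeR 3 were higher at an unadjusted p under 0.05, beside 5.32% of all genes. Pdgfa, the ligand of PDGFRA, averaged 3.40 ± 0.0982 CPM for WT (SD, n = 3) and 7.25 ± 2.01 CPM for TET2KO (SD, n = 2), 1.09 higher on the log2 scale (SE 0.26). Pdgfb, a ligand made by endothelium, differed by 0.94 (SE 0.29), Pdgfd by 0.81 (SE 0.29) and Pdgfrb, the receptor of pericytes, by 0.77 (SE 0.33). Pdgfc, another ligand of PDGFRA, and Pdgfrl, a PDGF receptor-like gene, lay below 0, at -0.51 (SE 0.76) and -0.92 (SE 0.90), both named after their values were seen.

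**Figure D4:**
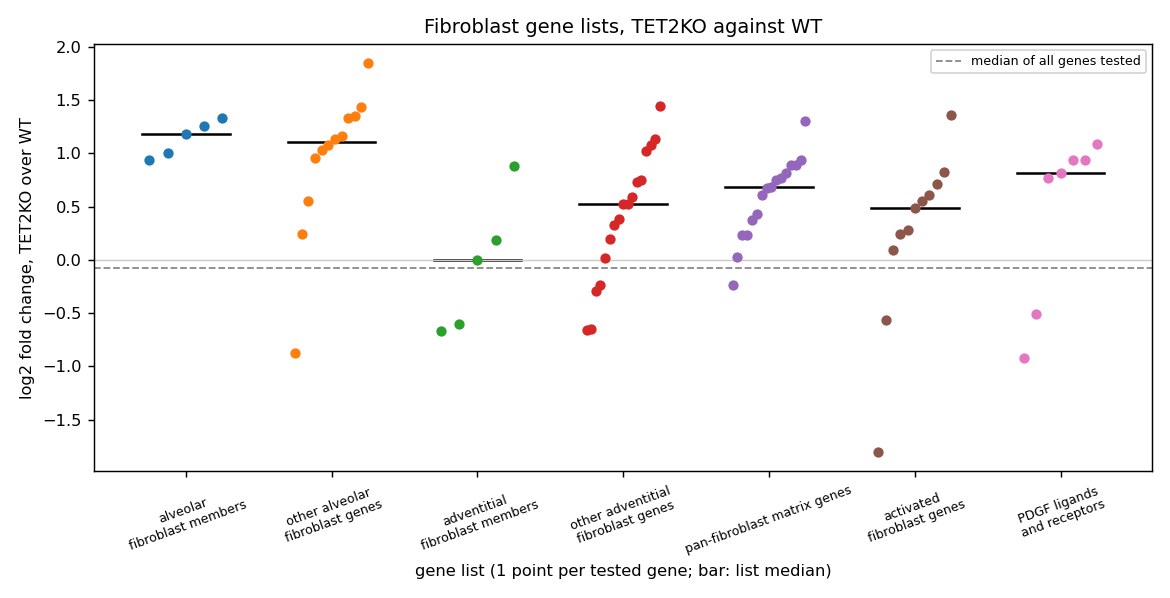
log2 fold changes, TET2KO over WT, of each tested gene in the lists of fibroblast genes, with the list median as a black bar and the median of all genes tested (-0.08) as a dashed line. The alveolar lists have medians of 1.18 and 1.11, the adventitial lists 0.0025 and 0.52; no single gene passed the adjusted threshold.

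Markers of other cell types moved across the same libraries. The 14 endothelial genes summed to 3522, 2964 and 4503 CPM in WT and to 5724 and 6129 CPM in TET2KO, with 14 of 14 above 0, a median of 0.77 and none at 0 counts in any library. That is the order of libraries seen for the alveolar fibroblast genes. For 13 of these 14 genes the TET2KO libraries lay above all WT libraries (12.4% of all genes). In edgeR, 8 of the 14 were higher at an unadjusted p under 0.05 (5.32% of all genes). The 14 leukocyte genes summed to 11026, 26036 and 7143 CPM in WT and to 7235 and 8944 CPM in TET2KO, with 1 of 14 above 0 and a median of -0.51. The 8 alveolar type 1 genes, of the thin epithelial cells of gas exchange, summed to 229, 260 and 283 CPM in WT and to 419 and 492 CPM in TET2KO, with 7 of 8 above 0 and a median of 1.03. For 7 of these 8 the TET2KO libraries lay above all WT libraries, and edgeR counted 6 as higher at an unadjusted p under 0.05. The 8 alveolar type 2 genes, of surfactant-making cells, ranged from 454 to 1066 CPM in WT and from 785 to 1068 CPM in TET2KO. The 8 mesothelial genes, of the lining of the lung surface, had the largest median of the lists here, 1.71, with 7 of 8 above 0. Those 7 were also higher at an unadjusted p under 0.05 by edgeR (5.32% of all genes). They had TET2KO libraries above all WT libraries too (12.4% of all genes). Of these 7, 4 were called by DESeq2 and 0 by edgeR at an adjusted p under 0.05, beside 0.326% and 0% of all genes. Without Krt19, a keratin that held most of the list's CPM and was at -0.66 (SE 0.95), the mesothelial genes summed to 14.6, 9.36 and 9.98 CPM in WT and to 30.9 and 44.3 CPM in TET2KO; with Krt19 the sums ranged from 56.8 to 425 CPM in WT and from 92.0 to 240 CPM in TET2KO. The 12 genes of pericytes and smooth muscle, 9 of 10 tested above 0, ranged from 18.2 to 33.2 CPM in WT and from 26.7 to 27.5 CPM in TET2KO. No gene of these lists was at 0 counts in any library. The part of these cell types in the fibroblast gene values was not tested.

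Per 1000 CPM of the endothelial genes, the alveolar fibroblast genes summed to 7.85, 7.31 and 9.55 CPM in WT and to 10.6 and 11.5 CPM in TET2KO. These sums did not overlap between the groups on this scale either, and Limch1 was their largest part. Taken by itself, Pdgfra did overlap. It had 4.04 CPM in WT replicate 3 and 5.48 CPM in TET2KO replicate 2, beside endothelial sums of 4503 and 6129 CPM. The share of all genes without overlap on this scale was not counted. The adventitial genes summed to 8.85, 4.65 and 3.05 CPM in WT and to 3.04 and 3.80 CPM in TET2KO on the same scale, and there the groups overlapped.

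**Figure D5:**
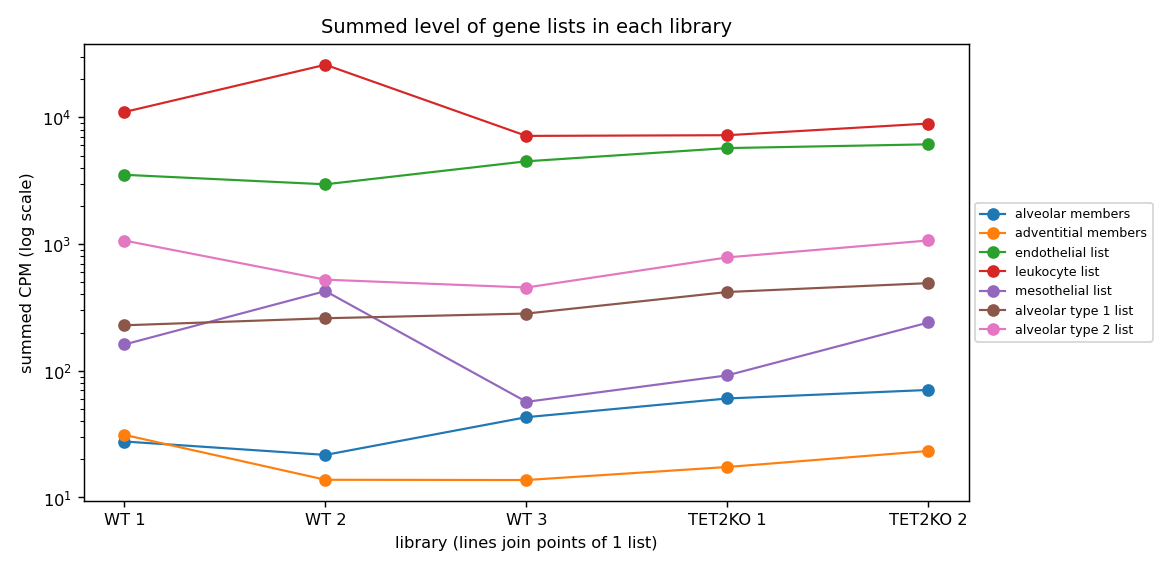
Summed CPM (log axis) of the alveolar and adventitial fibroblast genes and of the marker lists of other cell types in each library; lines only join the points of 1 list. The alveolar fibroblast and endothelial sums are lowest in WT replicate 2 and highest in TET2KO replicate 2, while the leukocyte sum is highest in WT replicate 2.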

How the data were processed

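Poly(A) RNA was read as 150 bp pairs, per the labels' protocols. The tools named in the submitters' processing notes are DESeq2, featureCounts from the Subread 1.5.2 package, STAR 2.5.2b and Trimmomatic 0.36, and the build is GRCm38. Whether counting used strand is not given in the sources used here; 6 of the 10 genes (Pdgfra, Tcf21, Limch1, Npnt, Pi16 and Dpt) overlap a GENCODE gene on the other strand. The authors deposited whole read counts per gene, TPM values, and a comparison table with a log2 fold change, p-value and adjusted p-value per gene beside counts divided by size factors, a normalized signal. A short deposited table holds 217 of its genes.

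Counts were tested with edgeR 4.0.16 in R 4.3.3 (quasi-likelihood F test, TMM, filterByExpr, genotype as the only term, Benjamini-Hochberg adjustment over 18727 genes). SE was taken as the size of the log2 fold change over the root of its F statistic. log2 CPM used a prior count of 2. Alternatives used DESeq2 1.42.0, limma 3.58.1 (voom, or log2 of TPM plus 1 or 0.1), other scalings and filters, and each library left out. The test code was checked on simulated counts. No libraries agreed within counting noise.

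The genes and lists were chosen with earlier results of these data known, so lists are described by counts and medians, with no test. Genes named from the fibroblast and PDGF lists were at most 4 per list, taken by smallest p among genes whose mean log2 CPM was 0 or more. Lpl, Col1a1, Col1a2, Grem1, Spp1, Gsn, Lum, Serpinf1, Ebf1, Pdgfc, Pdgfrl and Krt19 were added after their values were seen. Coordinates are from GENCODE (GRCm38).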

Additional observations from a re-analysis of the deposited data

How the results depend on the processing

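Under every alternative run, the 5 alveolar genes kept log2 fold changes above 0, and 0 of the 10 genes passed the adjusted threshold; Tcf21 was not tested where 1 CPM in 2 libraries was required, so the alveolar median has no value there, and DESeq2 gave it no adjusted p. Over all genes, DESeq2 called 61, all higher in TET2KO, against 0 by edgeR, where 1098 had an unadjusted p under 0.05. Leaving out 1 library at a time gave alveolar medians from 1.03 to 1.46, adventitial medians from -0.23 to 0.40 and 0 calls. Scaling to the endothelial genes gave medians of 0.52 and -0.76, with -0.54 for Pi16, -0.76 for Clec3b, -1.34 for Dpt, -1.42 for Scara5 and 0.10 for Mfap5; it moves the median of all genes to -0.80. Clec3b and Pi16, both near 0, changed sign elsewhere too. Leaving out 1 library at a time, Clec3b ran from -0.23 (WT replicate 3 left out) to 0.40 and was below 0 also when WT replicate 2 (-0.0029) or TET2KO replicate 1 (-0.02) was left out. Pi16 ran from -0.076 (TET2KO replicate 2 left out) to 0.76, with -0.054 when WT replicate 2 was left out. In all, 161 values of single genes kept their direction and side of the threshold and 8 reversed; the cause was not tested. Replicate numbers 1 and 2 are shared between the groups, but the labels do not say that they mark pairs. Deviations from group means correlated at 0.22 and 0.49 across genes between same-numbered libraries, and at 0.45 between WT replicate 3 and TET2KO replicate 1. With only 2 TET2KO libraries, their deviations are equal and opposite. Each WT library thus has the same value with the opposite sign for the other TET2KO library, such as -0.22 for WT replicate 1. These correlations therefore cannot show whether the numbers mark pairs. With the replicate number as a block, 0 genes were called, 2982 had an unadjusted p under 0.05, the alveolar median was 1.43, the adventitial median -0.24 and Clec3b -0.24. Replicate number 3 occurs only in WT, so that library adds nothing to the genotype difference in the block fit. Its medians lay near those without WT replicate 3, which were 1.46 and -0.23. The block also leaves little from which to measure the spread, so its count of p-values carries little weight. Tcf21, with 9 to 33 counts per library, is limited by counting error, and the nearest libraries of the groups overlapped within it for Pdgfra too.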

Other observations

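The genes whose course over the 5 libraries was nearest to the mean course of the alveolar genes were Acr, Cacnb3, Vangl1, Etl4 and Gm7694. Likeness was the Euclidean distance between log2 CPM values centred on each gene's mean, over 5 libraries and 13171 genes with a mean log2 CPM of at least 1, and these 5 lay at 0.151 to 0.258. The alveolar genes, which are part of that mean, ranked between 8 (Limch1) and 110 (Npnt) in the same order. Nearest to the mean of the adventitial genes were 5830411N06Rik, Arhgef37, Ly6g5b, Stac3 and Gm26545, at 0.199 to 0.301. The adventitial genes themselves ranked from 15 (Clec3b) to 6164 (Mfap5), so their courses differed more among themselves.

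The alveolar genes together took 0.00181% to 0.00437% of counts in the WT libraries and 0.00641% and 0.0075% in TET2KO. The adventitial genes took 0.00115% to 0.00325% in WT and 0.00184% and 0.00247% in TET2KO.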
